A study of Macaca fascicularis with 12 samples.

Results

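DCP2, DHX8, STAP1, PLAAT2 and SLPI are 5 genes that carry a probe set with higher signals in baculovirus-injected than in mock-injected monkey brain and that do not belong to the classical interferon-stimulated genes. They were chosen by that difference: the BV minus mock values of these same 12 arrays put them on the list. Their BV minus mock values are therefore given as a description, with no test. Every probe set whose single symbol in the array's annotation is 1 of the 5 was taken, which gave 14 of the 52766 probe sets other than controls: 6 for DCP2, 4 for DHX8, 2 for STAP1 and 1 each for PLAAT2 and SLPI. The 5 genes are among 14133 symbols on the array. For each gene, the probe set with the largest BV minus mock value is called the raised probe set below.

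BV arrays came from the left hemisphere of 3 adult male cynomolgus macaques (Macaca fascicularis), which received the baculovirus BV-HSVtk in 4 injections aimed at the caudate and putamen. Each injection held 10 µL and 1e+08 viral particles. Mock arrays came from the right hemisphere of the same animals, injected at matching coordinates with virus-free Sf9 insect cell medium taken through the same purification. Tissue was taken on day 2, with 2 pieces per hemisphere and 1 array per piece, so that each group had 6 arrays from 3 animals. In each group, animal 1 gave replicates 1 and 2, animal 2 gave 3 and 4, and animal 3 gave 5 and 6. The odd replicate of an animal is its piece 1 and the even one its piece 2. Since the left side always had the virus, the effects of treatment and of hemisphere cannot be told apart. No uninjected tissue was analysed here. The array was designed for rhesus macaque, and probes can bind cynomolgus RNA less well where the species differ.

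The 5 genes act in unrelated processes. DCP2 is the catalytic subunit of the decapping enzyme, which removes the cap from the start of an mRNA, works with DCP1 and EDC proteins, and leaves the transcript open to the exonuclease XRN1. DHX8 is a DEAH-box RNA helicase, known from its yeast counterpart Prp22, that releases the finished mRNA from the spliceosome. STAP1 is an adaptor protein with a pleckstrin homology and an SH2 domain, described downstream of the kinase TEC in B cells. PLAAT2 belongs to a small family of phospholipases and acyltransferases that move fatty acyl chains between lipids. SLPI is a secreted inhibitor of neutrophil elastase and cathepsin G, made by epithelia and phagocytes.

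Signals are probe set intensities after quantile normalisation of the 12 arrays. Differences are on the scale log2(signal + 3.49), so they understate the change of dim probe sets. They are means of 3 animals, each the mean of its 2 pieces, with the SD over animals. A probe set was tested where its mean log2 value reached 4.95, and 9 of the 14 did. The raised probe sets of DCP2 and STAP1 reached it only through the BV arrays, with mean log2 values of 7.74 and 6.46 in BV arrays, against 4.86 and 4.42 in mock arrays. The remaining 5, 2 of DCP2, 2 of DHX8 and 1 of STAP1, lay below this brightness limit and are described by their values. The deposited piece 1 arrays had trimmed means of 142 to 189, against 100.01 on each piece 2 array, so the piece number is also an array set. The ratio of actin 3′ to 5′ signals, a measure of RNA integrity, was 1.12 to 1.30 in the BV arrays and 1.10 to 1.40 in 5 of the mock arrays, but 2.40 in mock replicate 6. The BV minus mock differences of the raised probe sets, the piece contrast and the mock correlations are also given without that array. In tissue that mixes many cell types, more cells of a type and more RNA per cell cannot be told apart.

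DCP2 had raised signals on only part of its probe sets. The raised one, MmugDNA.29993.1.S1_s_at, had signals of 29.2 to 529.7 with a median of 347 in BV arrays, against 3.71 to 119 with a median of 39.4 in mock arrays. Each BV array was above the mock array of the same animal and piece, but the groups overlapped, because BV replicates 1 and 3 lay below the highest mock arrays. The difference was 2.88 ± 1.03 (SD, n = 3 animals), 7.36-fold, and ranked 5 among all tested probe sets. Animals 1 and 2 differed by 2.23 and 2.34, and animal 3 by 4.06. The lowest mock signal, 3.71, was that of mock replicate 6, whose RNA ratio stands apart; without it the difference was 2.31. Leaving out 1 array at a time gave 2.27, without BV replicate 2, to 3.49, without BV replicate 1.

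The second DCP2 probe set that was higher in BV tissue, MmugDNA.23544.1.S1_s_at, had a difference of 2.15 ± 1.18, or 1.89 without mock replicate 6, and was higher in 6 of 6 pairs. Its values went with those of the raised probe set at r = 0.95 over the 12 arrays. Such correlations between probe sets of a gene, here and below, span both groups, so the BV minus mock difference is part of them. Both names end in s_at, by which the maker marks probes that match several transcripts. The other 4 DCP2 probe sets gave differences of 0.40 ± 0.47, 0.10 ± 0.87, -0.03 ± 0.26 and -0.25 ± 0.14. The lowest of these, MmugDNA.530.1.S1_at, was bright enough to be tested, was higher in BV in 1 of 6 pairs, and correlated with the raised probe set at r = -0.61. The 6 probe sets that carry the DCP2 symbol thus gave different answers, and the part of the transcript that each one matches was not used here.

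**Figure D1:**
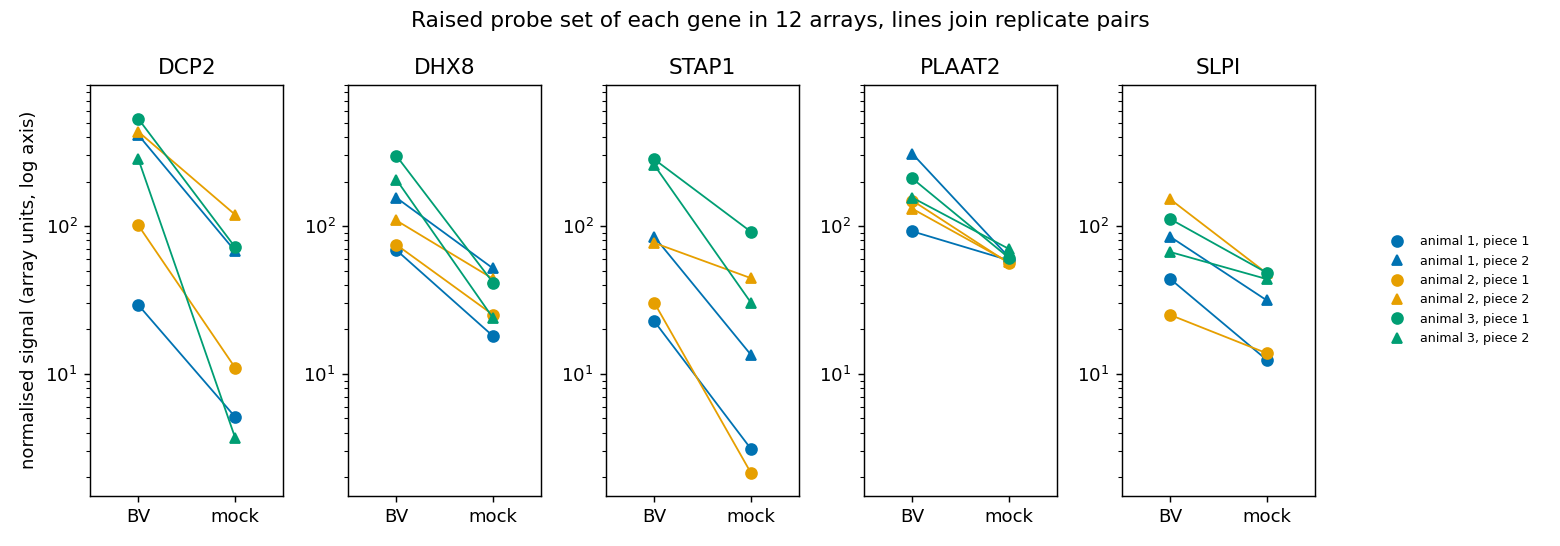
Normalised signals of the raised probe set of each of the 5 genes on a log axis, with BV arrays left of mock arrays and lines joining arrays of the same animal and piece. All 6 lines of each gene run lower on the mock side, and the groups do not overlap for DHX8 and PLAAT2.

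DHX8 showed the same split. The raised probe set, MmugDNA.16432.1.S1_at, had signals of 68.7 to 298.5 with a median of 132 in BV arrays, against 18.0 to 51.7 with a median of 33.2 in mock arrays. The lowest BV array was above the highest mock array, so the groups did not overlap. The difference was 1.94 ± 0.79, 3.84-fold, and 1.82 without mock replicate 6. Animal 3 had the largest value, 2.84, against 1.64 and 1.35 in animals 1 and 2.

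A second DHX8 probe set, MmugDNA.7314.1.S1_at, was below the brightness limit and had a difference of 1.49 ± 1.52. Its BV signals reached 105.7 and 62.3 in animal 3, where the mock signals were 7.66 and 4.75, while animal 1 differed by 0.16. The probe set followed the raised one at r = 0.85. The last 2 gave 0.22 ± 0.22 for MmuSTS.828.1.S1_at, which was tested, and -0.38 ± 1.13 for MmugDNA.39164.1.S1_at, which was dim. The 4 DHX8 probe sets therefore ranged from lower to higher in BV tissue.

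STAP1 had a raised probe set of low signal, MmuSTS.558.1.S1_at. Signals were 22.7 to 282.2 with a median of 80.7 in BV arrays, against 2.13 to 91.4 with a median of 21.9 in mock arrays. The groups overlapped, since the highest mock array, replicate 5, was above 4 of the BV arrays, yet each BV array was above its own mock partner. The difference was 2.04 ± 0.33, 4.11-fold, with 2.18, 1.67 and 2.27 in animals 1, 2 and 3, and 1.79 without mock replicate 6. Leaving out 1 array at a time gave 1.53, without mock replicate 3, to 2.55, without mock replicate 4. The other STAP1 probe set, below the brightness limit, differed by 0.79 ± 0.89 and correlated with the raised one at r = 0.84.

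PLAAT2 differed by nearly the same amount in each animal, but not in each pair. Its probe set, MmugDNA.30775.1.S1_at, had signals of 92.0 to 308.4 with a median of 152 in BV arrays, against 56.0 to 70.0 with a median of 59.8 in mock arrays. All 6 mock arrays lay close together, and every BV array was above all of them. The difference was 1.37 ± 0.10, 2.59-fold, with 1.44, 1.26 and 1.42 in the 3 animals, and 1.40 without mock replicate 6. Single pairs ran from 0.62 to 2.26, both in animal 1. Leaving out BV replicate 2, the highest array, gave 1.09.

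SLPI had the smallest difference. Its probe set, MmugDNA.2108.1.S1_s_at, had signals of 25.0 to 151.6 with a median of 75.6 in BV arrays, against 12.4 to 48.2 with a median of 37.6 in mock arrays. The groups overlapped, with BV replicates 1 and 3 below the highest mock arrays. The difference was 1.16 ± 0.30, 2.23-fold, with 1.46, 1.16 and 0.86 in animals 1, 2 and 3, and 1.14 without mock replicate 6. Leaving out BV replicate 4, the highest array, gave 0.75, and leaving out BV replicate 3, the lowest, gave 1.57.

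Of the 9 tested probe sets, 0 passed the limma fit of hemisphere means with animal as a block, in which 9 of 31660 probe sets were called higher in BV, 0.0284% of those tested. In the fit of single arrays with the replicate number as a block, 5 of the 9 were called, those raised, where 53 probe sets were called higher, 0.167% of those tested. Higher in BV in all 6 pairs were 6 of the 9, against 3.37% of the tested probe sets. Not overlapping between groups were 2 of the 9, against 0.237%. Because this contrast chose the genes, nothing is read from these counts.

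**Figure D2:**
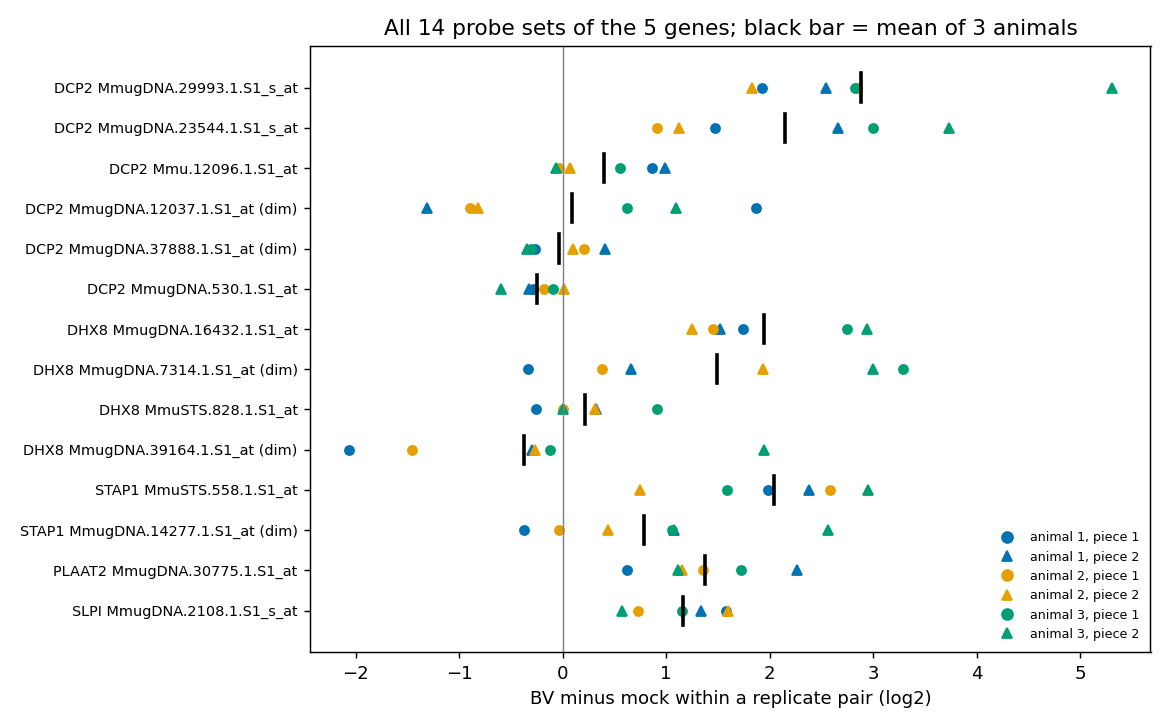
BV minus mock difference on the log2 scale of each of the 14 probe sets, grouped by gene, with probe sets below the brightness limit marked. Each point is 1 replicate pair, that is 1 piece of 1 animal, and the bar is the mean of 3 animals. The 6 DCP2 probe sets spread from -0.25 to 2.88 and the 4 DHX8 probe sets from -0.38 to 1.94.

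The tissue pieces differed in their share of striatum and thalamus, which the choice of genes did not use. A region score was taken for each array as the mean log2 level of 10 striatal markers, among them PPP1R1B of medium spiny neurons, minus that of 10 thalamic markers, among them TCF7L2, and it ran from -2.35 to 2.65 in BV arrays and from -1.98 to 4.27 in mock arrays. The score was higher in the BV array in 2 of 6 pairs, the thalamic mean in 6 of 6 and the striatal mean in 3 of 6. The thalamic mean differed by 0.00 in replicate 3 and by 1.48 in replicate 2. The largest gap in score was in replicate 2, of animal 1, at -4.97 for BV minus mock.

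No tested probe set of the 5 genes passed the limma test of a slope on this score, fitted over the 12 arrays with treatment as a term and replicate number as a block and adjusted by Benjamini-Hochberg. In that test 0.623% of 31640 probe sets were called. PLAAT2 had the slope of smallest p, -0.20 ± 0.07 log2 units per unit of score (SE, adjusted p = 0.485). The second DCP2 probe set had -0.34 ± 0.13 (adjusted p = 0.611). A p above the threshold does not show that region played no part. The raised probe sets of DCP2 and STAP1 were in this test only through their BV arrays, so nothing is read from their slopes. With the region score beside treatment in the replicate block fit, the differences of the raised probe sets were 2.76 ± 0.49 for DCP2, 1.80 ± 0.29 for DHX8, 2.00 ± 0.34 for STAP1, 1.06 ± 0.18 for PLAAT2 and 1.14 ± 0.23 for SLPI (SE). In that fit 8 of 31660 probe sets were called, against 55 in the block fit without the score, and 0 of the 5 raised probe sets, against 5. Over all probe sets, 1786 had an unadjusted limma p under 0.05 with the score, against 4545 without it. The fall in calls was thus not particular to these genes, and nothing is read from it. The genes were chosen on the BV minus mock contrast, so the values are a description.

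Within the 6 mock arrays, after subtracting the mean of each piece, the raised probe sets went with the region score at r = 0.90 for STAP1, 0.91 for SLPI, 0.61 for PLAAT2, 0.37 for DHX8 and 0.27 for DCP2. Mock replicate 6 set the values of DHX8 and DCP2: over the 5 mock arrays without it, DHX8 had 0.90 and DCP2 0.93, beside 0.93 for STAP1, 0.94 for SLPI and 0.66 for PLAAT2. The DHX8 probe set MmuSTS.828.1.S1_at, which is not raised, ran the other way, at -0.96 over 6 mock arrays and -0.99 over 5. In the 6 BV arrays the raised probe sets had 0.40 for STAP1, 0.17 for SLPI, 0.19 for DHX8, 0.10 for DCP2 and -0.57 for PLAAT2. The lowest mock signals of STAP1 and SLPI were those of replicates 1 and 3, the mock arrays with the lowest striatal scores, and the highest were those of replicate 5, with a score of 3.00. The 6 pair differences of PLAAT2 went with the pair differences in score at r = -0.83. The arrays come from 3 animals and pieces share a hemisphere, so these correlations describe the arrays and carry no test.

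**Figure D3:**
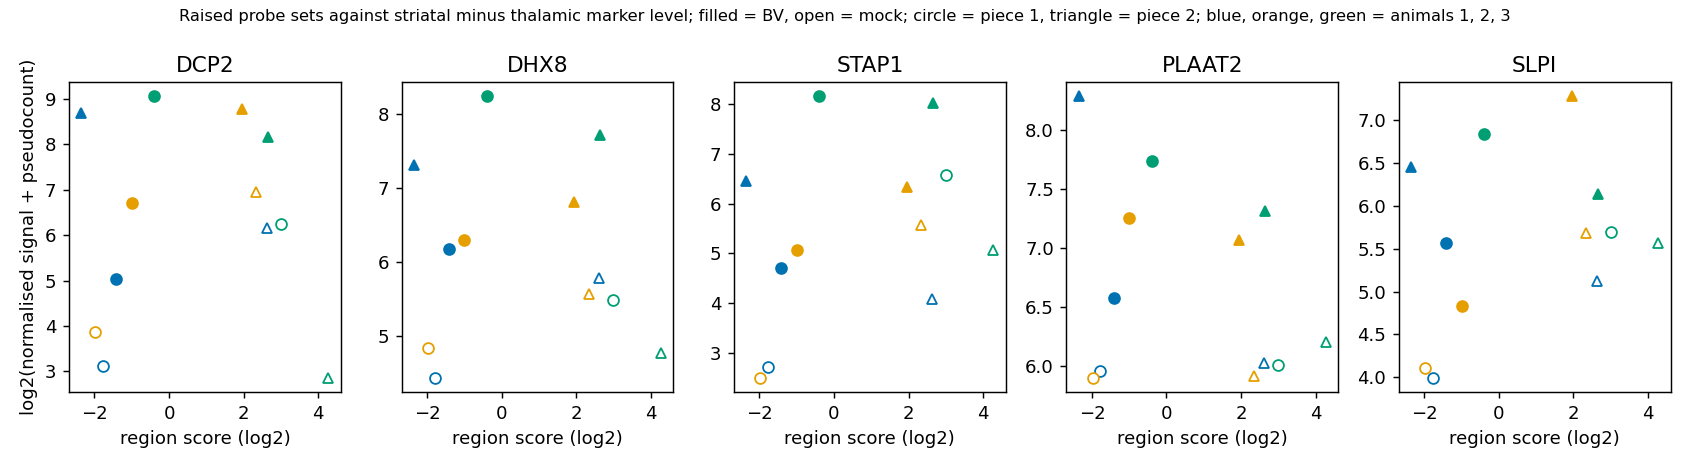
Level of each raised probe set, as log2 of normalised signal plus pseudocount, against the region score of the array (striatal minus thalamic marker mean, log2), with BV arrays filled, mock arrays open and a vertical scale of its own in each panel. STAP1 and SLPI run upward with the score among mock arrays, where mock replicate 6 has the highest score and a low DCP2 level.

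Piece 2 was compared with piece 1 within hemispheres, a contrast balanced over treatment. None of the 9 tested probe sets passed in limma, where 5.23% of 31660 probe sets were called. SLPI was higher on piece 2 by 0.87 ± 0.37 (SE, adjusted p = 0.156), STAP1 by 0.97 ± 0.49 (adjusted p = 0.225) and the raised DCP2 probe set by 1.26 ± 0.85 (adjusted p = 0.35), each in 4 of 6 hemispheres. MmugDNA.530.1.S1_at of DCP2 was the nearest to the threshold, higher by 0.41 ± 0.13 in 6 of 6 hemispheres (adjusted p = 0.084). Without mock replicate 6, a choice made after seeing the data, 14.5% of probe sets were called, among them both DCP2 probe sets that were higher in BV and STAP1: the raised DCP2 probe set was higher on piece 2 by 2.19 (adjusted p = 0.0392) and STAP1 by 1.47 (adjusted p = 0.039). Without animal 3, 27.2% were called, among them 5 of the 9, of DCP2, DHX8, STAP1 and SLPI. The raised probe sets of DCP2 and STAP1 reached the brightness limit only through the BV arrays, so nothing is read from their calls. The array set moves with the piece number in every hemisphere, and the region score was higher on piece 2 in 5 of 6, BV tissue of animal 1 having -2.35 on piece 2 and -1.41 on piece 1; their parts were not tested.

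Whether the BV minus mock difference itself differed between pieces was tested as an interaction. Of 31660 probe sets, 0% were called by limma, with 760 at an unadjusted p under 0.05. For the 9 probe sets the interaction ran from -0.13 to 0.71 on the log2 scale, and each adjusted p was 1. Without mock replicate 6, limma again called 0, with 2247 at an unadjusted p under 0.05. The raised probe sets of DCP2 and STAP1 reached the brightness limit only through the BV arrays, so nothing is read from their interaction.

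The 5 raised probe sets varied together over the arrays, after subtracting the mean of each piece. DCP2 and DHX8 were the closest pair at r = 0.90, then DHX8 and PLAAT2 at 0.86 and STAP1 and SLPI at 0.85. PLAAT2 and SLPI were the least alike at 0.65. These correlations span both groups, between which all 5 differ by choice, so nothing is read from their sign.

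By the same measure, the genes most like each raised probe set were named by rule as the 5 of highest r. Since these r values also span both groups, a gene that is itself higher in BV can rank high through that difference. The lists are a description, and shared control was not tested. For DHX8 these were OAS3 at 0.98, on 2 of its 3 probe sets, MLKL at 0.98, TNFSF13B at 0.97 and LGALS3BP at 0.97. The remaining OAS3 probe set, its brightest, differed by only 0.17 between BV and mock. OAS3 makes an activator of the antiviral RNase L and MLKL carries out necroptosis. For PLAAT2 they were IFI27 at 0.95, BTN3A3 at 0.95, MX1 at 0.94, CMPK2 at 0.94 and OAS1 at 0.94. Of these, IFI27, MX1 and OAS1 are on the interferon-stimulated panel given below, as are OAS3 of the DHX8 list and GBP1 of the DCP2 list. For STAP1 they were the complement genes C1QA at 0.97 and C1QB at 0.95, the adhesion molecule VCAM1 at 0.95, LOC705588 at 0.94 and TAPBP at 0.94. For DCP2 they were PTPN23 at 0.98, KCNMB4 at 0.97, MAMU-E and MAMU-DRA at 0.96, both of the macaque major histocompatibility complex, and GBP1 at 0.96. SLPI differed in its list, with CEBPB at 0.94, a transcription factor of myeloid cells and liver, PALB2 at 0.94, MRPS30 at 0.93, NUP205 at 0.92 and MOB3C at 0.90.

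The decapping and spliceosome lists held no gene that passed the limma fit of hemisphere means, which no probe set of DCP2 or DHX8 passed either. Of 23 measured genes of mRNA decapping and decay, 13 were higher and 10 lower in BV, and the median difference was 0.01. The largest were NUDT3, another decapping enzyme, at 0.26 ± 0.13 (SE, adjusted p = 0.569), whose other tested probe set differed by -0.16, and EDC4, the scaffold of the decapping complex, at -0.25 ± 0.17 (adjusted p = 0.6). Of 22 DEAH-box and spliceosome genes, 17 were higher and 5 lower, none passed, and the median was 0.07, with DHX34 at 0.27 ± 0.34 and PRPF18 at 0.27 ± 0.19 the largest (adjusted p = 0.747 and 0.609). Over all 11143 genes, 50.5% were higher in BV and the median was 0.00. Each gene was taken by its brightest probe set.

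Relatives of the other 3 genes were few. Of 13 partners of STAP1 and B cell receptor genes, 8 were higher and 5 lower, none passed, and the median was 0.05, or -0.01 without mock replicate 6. The adaptors PIK3AP1 and BLNK differed most, by 0.78 ± 0.28 and 0.63 ± 0.37 (adjusted p = 0.564 and 0.581). Of 5 relatives of PLAAT2, 2 were higher and 3 lower and none passed. PLAAT4, a family member known to respond to retinoids, had the largest difference of them at 2.23 ± 0.45 (adjusted p = 0.41), with signals of 173.6 to 1144 in BV arrays against 17.1 to 621.5 in mock arrays. It was higher in 6 of 6 pairs, but its other probe set, which was dim, differed by -0.14. PLAAT3, a phospholipase of fat tissue, differed by 0.32 ± 0.12 (adjusted p = 0.564).

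Of 13 relatives and targets of SLPI, 7 were higher and 6 lower and none passed. PLSCR1, a membrane protein that binds SLPI, differed by 1.65 ± 0.37 (adjusted p = 0.44) and PI3, the elastase inhibitor elafin, by 1.24 ± 0.38 (adjusted p = 0.564). For scale, 15 of 16 interferon-stimulated genes of a panel were higher in BV and 4 passed, with a median of 1.88. The differences of those the rule names were 3.56 ± 0.13 for ISG15 (adjusted p = 0.00539), 2.55 ± 0.16 for IFI27 and 2.12 ± 0.14 for IFIT3 (adjusted p = 0.0256 for both).

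**Figure D4:**
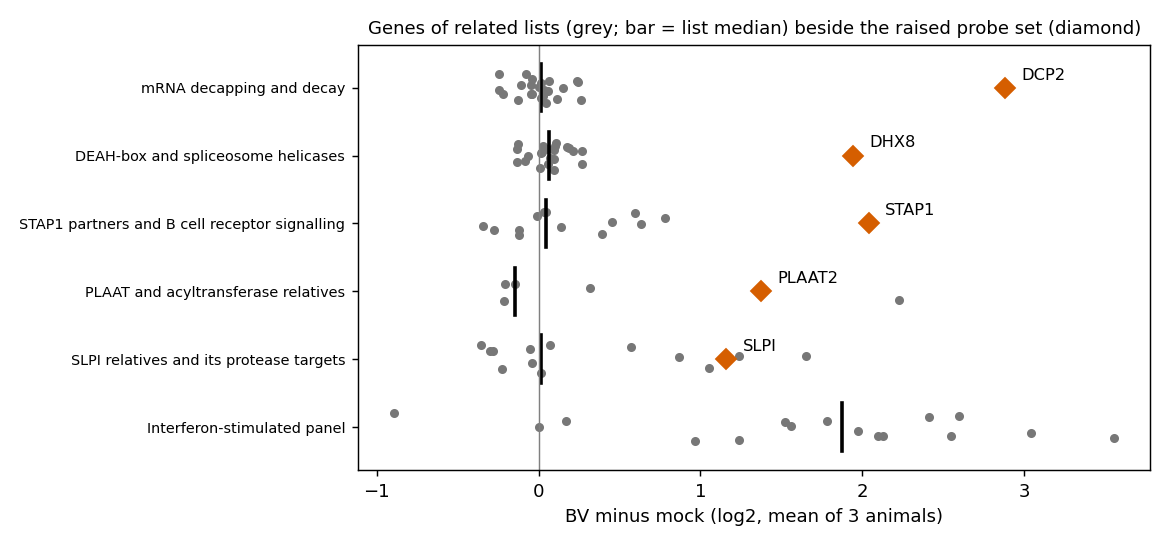
BV minus mock difference on the log2 scale of each measured gene of the 6 related lists, 1 point per gene by its brightest probe set. The decapping list stays between -0.25 and 0.26, while the interferon-stimulated panel has a median of 1.88.

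Most markers of immune cells had higher mean levels in BV tissue, but 0 passed the limma fit. All 6 monocyte markers were higher, with a median of 1.08, but by animal the median was 1.93, -0.06 and 1.31 in animals 1, 2 and 3, and without mock replicate 6 it was 0.78. Their summed signal was 1249 to 5525 in BV arrays against 522 to 5132 in mock arrays. Of 10 microglia and macrophage markers 7 were higher, with a median of 0.13 and a sum of 4878 to 12260 in BV arrays against 3574 to 7999 in mock arrays. Of 4 neutrophil markers 3 were higher (median 0.55), of 4 T and NK cell markers 3 (median 0.34), and both B cell markers (median 0.51). A single epithelial marker was bright enough to be tested, and it differed by -0.21.

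Each raised probe set was set against the mean level of 20 lists, and the values below are examples with no test of a difference between lists. In the 6 BV arrays, the microglia and macrophage markers went with DHX8 at r = 0.93, with STAP1 at 0.93, with DCP2 at 0.81 and with SLPI at 0.80, and with PLAAT2 at 0.38. The interferon-stimulated panel went with DHX8 at 0.99, STAP1 at 0.97, DCP2 at 0.83, PLAAT2 at 0.63 and SLPI at 0.49 there. STAP1 also followed the T and NK cell markers, at 0.94 in BV arrays and 0.90 in mock arrays. That list did not stand apart: in BV arrays STAP1 went with the relatives of PLAAT2 at 0.98 and the single epithelial marker at 0.90. DCP2 had its highest values in BV arrays with the list of STAP1 partners, at 0.96, and with endothelial and pericyte markers, at 0.90. SLPI went with the monocyte markers at 0.92.

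Among mock arrays some of the values depended on replicate 6, while others changed little without it. PLAAT2 and the interferon-stimulated panel had r = -0.14 over 6 mock arrays and 0.30 over the 5 without it. DCP2 and the neuronal markers had -0.45 over 6 and -0.97 over 5. STAP1 and SLPI ran against the neuronal markers with and without it, at -0.97 and -0.98 over 6 mock arrays and -0.98 and -0.99 over 5. The part of these cell markers in the differences of the 5 genes was not tested.

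**Figure D5:**
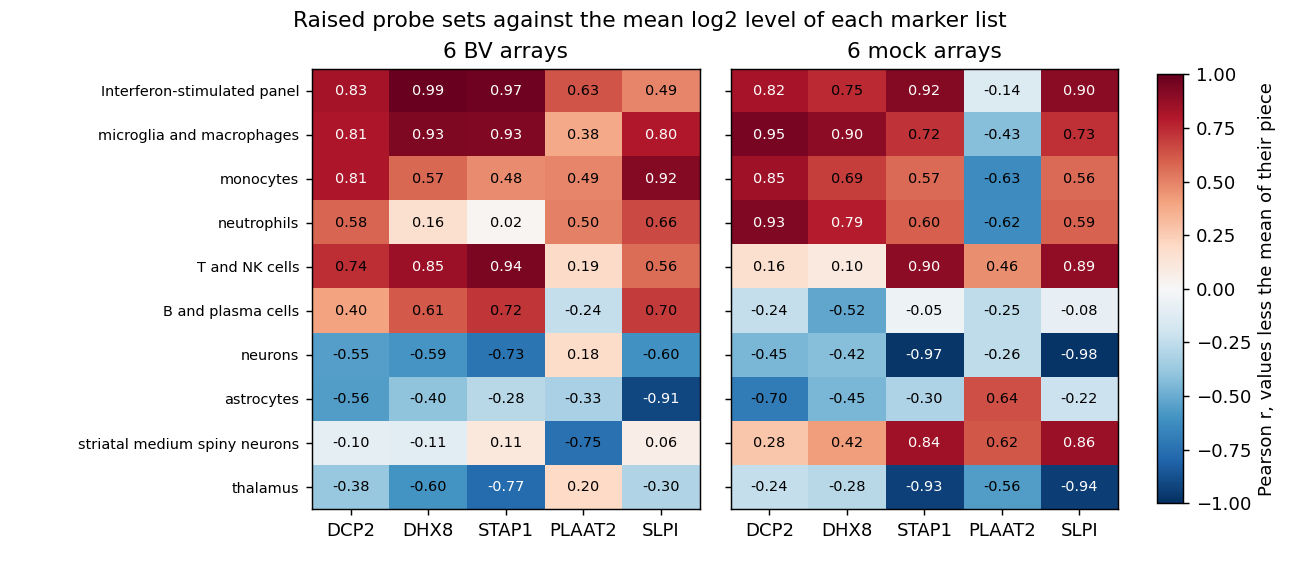
Pearson r between the level of each raised probe set and the mean log2 level of each list, in the 6 BV arrays at left and the 6 mock arrays at right, after subtracting the mean of each piece. DHX8 and STAP1 reach 0.99 and 0.97 with the interferon-stimulated panel in BV arrays, and PLAAT2 has -0.14 with it in mock arrays.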

How the data were processed

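The authors deposited, for each array, a column of intensities on a linear scale, from a rhesus macaque array hybridised with cynomolgus RNA. Software GCOS, version 1.4.0.036, is listed in the submitters' processing notes. How probes were summarised and scaled is not given in these sources, and the labels name labelling kits of different makers without assigning them to arrays. All value columns were mapped to a sample (0 unmapped). Symbols come from the platform annotation; all 5 also occur in a RefSeq table for Macaca fascicularis. No probe or gene sequence was used.

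The 12 arrays were quantile normalised, and log2(signal + 3.49) was taken, 3.49 being the 10th percentile of the deposited intensities. The 99 control probe sets were left out, and 31660 probe sets stayed in the tests, those whose mean reached 4.95, the 40th percentile. Fits used limma 3.58.1 under R 4.3.3, with eBayes, a trend, and two-sided Benjamini-Hochberg adjustment at 0.05 over all probe sets tested. BV minus mock was fitted on hemisphere means with animal as a block. The region slope left out the 20 marker probe sets of the score. Replicate numbers mark the same animal and piece, per the labels, and were used on that ground to pair the samples. Same-numbered arrays deviated together at r = 0.284 to 0.623 in 6 pairs. The same check by animal gave 0.622, 0.156 and 0.361 for animals 1, 2 and 3. No r of mismatched arrays is given for comparison. The fits were tested on simulated data. The number of arrays limits the precision.

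The genes and all gene lists were chosen with earlier results of these data known. The text gives the BV minus mock difference of every probe set of the 5 genes. It names up to 3 called genes of each related list or otherwise the 2 of largest difference, and the 5 genes most like each raised probe set. PLAAT4's second probe set was added after its values were seen. Alternatives covered the block, normalisation, pseudocount, filter, variance trend, region score and each array or animal left out.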

Additional observations from a re-analysis of the deposited data

Results flagged for a closer look

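An array far from the others of its group was found in 3 of 28 groups of 6 arrays, by the gap to the nearest array as a share of the group's range, where chance gives about 1.4. The DCP2 probe set with a BV minus mock difference of 0.40 had 1 BV array apart, replicate 5 at a log2 level of 6.97, with a gap of 0.754 of the range. For DHX8 MmugDNA.39164.1.S1_at it was mock replicate 6, at 2.42, with 0.635, and that array also has the high actin ratio. For DHX8 MmuSTS.828.1.S1_at it was mock replicate 5, at 5.29, with 0.741. None of the 3 is a raised probe set.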

How the results depend on the processing

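The differences of the 5 raised probe sets were above 0 under every alternative that kept them, from 2.27 to 3.49 for DCP2 and 1.49 to 2.24 for DHX8. These probe sets were chosen for that difference on the same arrays, so nothing is read from the sign. The filter at the 60th percentile removed STAP1 and SLPI. PLAAT2 was 1.23 on piece 1 arrays, 1.51 on piece 2 arrays, 1.49 with median centring, 1.23 with a pseudocount of 16, 1.06 with the replicate block and region score, and 1.09 to 1.66 with 1 array left out. STAP1 was 1.47 with a pseudocount of 16 and 1.53 to 2.55 with 1 array left out, and SLPI was 0.75 to 1.57. The count of probe sets called in BV minus mock was 9. It was 55 with the replicate block, 30 with single arrays and an animal block, 38 with a piece term added, 85 with an estimated correlation within hemispheres, 14 on piece 1 arrays, 0 on piece 2 arrays (limma, 1747 at an unadjusted p under 0.05), 1 without normalisation, 5 without a filter and 1 without the variance trend. It was 1, 1845 and 82 without animals 1, 2 and 3, and 0 (without mock replicate 5, 1703 unadjusted) to 43 (without mock replicate 6) with 1 array left out.

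The region slope called 197 probe sets, but 0 with thalamic markers alone (1654 unadjusted, limma), 0 without animal 1 (1851 unadjusted), 43 without animal 2, and 60 to 320 without 1 replicate pair. The 144 values of the 5 genes under its alternatives all missed the threshold. The piece contrast called 1657 (5.23% of those tested), against 23102 (73%) without normalisation and 3212 (10.1%) with median centring. It called 0, 0 and 8602 (27.2%) without animals 1, 2 and 3 (4238 and 4669 unadjusted for the zeros). Without mock replicate 6, added after seeing the data, it called 4583 (14.5%). Of 72 values of the 5 genes, 11 passed. All came from settings that called 10.1% to 73% of all probe sets, so nothing is read from that count. The interaction called 1 probe set without animal 3. The causes were not tested. Each contrast rests on 3 animals, dim probe sets have understated differences, and no detection calls were used.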
